A study of Homo sapiens with 16 samples.

Results

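The BCL2 family promoters were the promoter regions of BCL2, BCL2L1, BCL2L11, MCL1, BAX, BBC3, PMAIP1, BAD, BIK and BID, taken by gene symbol from the row names of the deposited tables. Of these 10 genes, 9 had a row, each with 1 promoter, so that 9 of 21857 promoters are described. BBC3 had no row under its symbol and was not analysed here. Cells were GM12878, a human B-lymphoblastoid line transformed with Epstein-Barr virus, left untreated or stimulated with heat-killed Salmonella typhimurium (HKST) for 20, 40 or 60 min. All cells were cross-linked with formaldehyde, nuclei were digested with 20 U (light) or 200 U (heavy) of micrococcal nuclease (MNase), and fragments from the 2 kb around each transcription start site (TSS) were captured and sequenced (mTSS-seq). The series holds 16 samples, 2 replicates of each of 8 combinations of time and digestion. In each combination the title of 1 replicate carries the tag NOHDI and that of the other does not. The meaning of the tag was not taken up here. The authors deposited 1 table per combination that pools both replicates, so no spread between replicates could be measured. GM12878 is 1 line from 1 donor, and HKST gives it bacterial products without a live infection.

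The BCL2 family sets whether a cell keeps its mitochondria intact or opens them and dies. The anti-apoptotic members BCL2, BCL2L1 (BCL-XL) and MCL1 bind and hold back the pore-forming effector BAX, and the BH3-only members BCL2L11 (BIM), PMAIP1 (NOXA), BAD, BIK and BID either neutralise the anti-apoptotic members or activate the effectors. B cells depend on this balance, and MCL1, a protein that is made and destroyed within minutes to hours, and BCL2, a target of a translocation in follicular lymphoma, are known survival factors of the lineage. A nucleosome that appears in the light digest and is lost in the heavy digest is called sensitive to MNase, and one that gains in the heavy digest is called resistant.

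Each tabulated value counts the fragment centers that fell within 60 bp, scaled to the total fragments of its table (rpm). The tables rest on 9.43 to 10.5 M light and 3.27 to 7.04 M heavy fragments, with the fewest in the 40 min heavy table. Depths and fragments were recovered from the steps of the values, with a step taken as 0.5 fragment, and fragment numbers were rounded. Sensitivity is given as log2 of light over heavy rpm after 0.122 rpm was added to both, and a value above 0 means more signal in the light digest. The -1 window runs from -200 to 0 bp of the TSS and the +1 window from 50 to 250 bp. Intervals are exact 95% counting intervals of the recovered fragments, without the added rpm, which draws the ratios of low windows toward 0. They cover counting error only, not the spread between cultures or tubes. A change between time points and a difference in the extent of digestion between tubes cannot be told apart. A change whose interval excludes 0 is called here, and the share of all promoters called in the same way is given beside it. Each HKST time is set against 1 pair of untreated tables. The tables of untreated cells and of the later times (40 and 60 min) held all 9 promoters and 16260 in all. Of the 9, MCL1 alone had the tables that the 20 min comparison needs, which hold 2801 promoters in all.

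The TSSs lie, in hg19, on chromosome 18 at 60986613 (BCL2, minus strand) and 57567192 (PMAIP1, plus), on chromosome 20 at 30310656 (BCL2L1, minus), on chromosome 1 at 150552214 (MCL1, minus), on chromosome 19 at 49458117 (BAX, plus), on chromosome 2 at 111878491 (BCL2L11, plus), on chromosome 11 at 64052176 (BAD, minus), and on chromosome 22 at 43506754 (BIK, plus) and 18256808 (BID, minus). Against GENCODE transcripts of GRCh37, 8 of the 9 TSSs lay within 36 bp of an annotated start. The BCL2 TSS lay 389 bp from one, and its whole -1 window is inside an annotated BCL2 exon. The -1 window of BCL2L1 is likewise exonic, in longer BCL2L1 transcripts and in the opposite-strand long noncoding RNA ABALON. The MCL1 window shares 22 bases with an exon of an unnamed long noncoding RNA that starts at -179 bp on the other strand, the BAX window has 45 bases in a BAX exon, and the BAD window has 84 bases in an exon of GPR137, whose own TSS in the tables is 365 bp downstream on the opposite strand. BAD and GPR137 therefore share most of their 2 kb and its fragments. No exon overlaps the 200 bases upstream of BCL2L11, PMAIP1, BIK or BID.

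The upstream sequences are rich in G and C. Their GC content over the 200 bases before the TSS ranged from 53.5% at BCL2 to 79% at BCL2L11, with 75.5% at MCL1, 76.5% at BID and 77.5% at PMAIP1, against a median of 61% over 21837 promoters. The sequences of 3 promoters are shown. They carry no exon of their own gene, and they belong to the longest empty stretch described below (BCL2L11), the most occupied -1 window (MCL1) and the most sensitive 2 kb (PMAIP1). They were read from GRCh37, run 5′ to 3′ from -200 to -1 bp of the TSS, and have matches to the searched motifs in capitals.
MCL1 (chr1:150552215-150552414, - strand): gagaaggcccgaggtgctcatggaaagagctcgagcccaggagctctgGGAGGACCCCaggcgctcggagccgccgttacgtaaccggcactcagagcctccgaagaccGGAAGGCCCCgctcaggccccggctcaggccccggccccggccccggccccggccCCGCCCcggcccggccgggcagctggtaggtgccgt
BCL2L11 (chr2:111878291-111878490, + strand): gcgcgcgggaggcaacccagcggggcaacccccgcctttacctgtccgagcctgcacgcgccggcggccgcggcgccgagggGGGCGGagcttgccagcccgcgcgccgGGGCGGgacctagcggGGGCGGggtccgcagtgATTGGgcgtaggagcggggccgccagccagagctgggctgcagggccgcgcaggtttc
PMAIP1 (chr18:57566992-57567191, + strand): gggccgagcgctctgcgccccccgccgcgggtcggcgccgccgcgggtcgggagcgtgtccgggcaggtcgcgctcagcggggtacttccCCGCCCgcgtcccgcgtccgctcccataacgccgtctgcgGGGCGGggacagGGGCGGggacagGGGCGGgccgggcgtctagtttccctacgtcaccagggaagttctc
The motifs, searched on both strands of 8 promoters (all but BIK), were the GC box GGGCGG, the CCAAT box CCAAT, the TATA box TATAAA, the E box CACGTG, the CRE core (TGAC followed by GTCA), AP-1 TGANTCA, and the NF-kB and p53 sites by name. A GC box was found at 7 of these 8 promoters, the exception being BCL2, against 46.1% of all promoters. PMAIP1 held the most, with 4 sites. A CCAAT box was found at 3, BCL2L11, BAX and BAD, against 28.4%. The E box was found at 2, BAX with 3 sites and BID, against 5.63%. Of the 8, MCL1 alone held NF-kB matches, which start at -152 and -91 bp, and 8.66% of all promoters held one. No match to the TATA box, CRE core, AP-1 or p53 pattern was found, letters that 7.92%, 1.7%, 4.24% and 3.85% of all promoters hold. The p53 pattern was only part of a full p53 site and allowed no mismatch. Imperfect p53 sites were therefore not searched for. A match is a description of letters and not of binding.

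**Figure D1:**
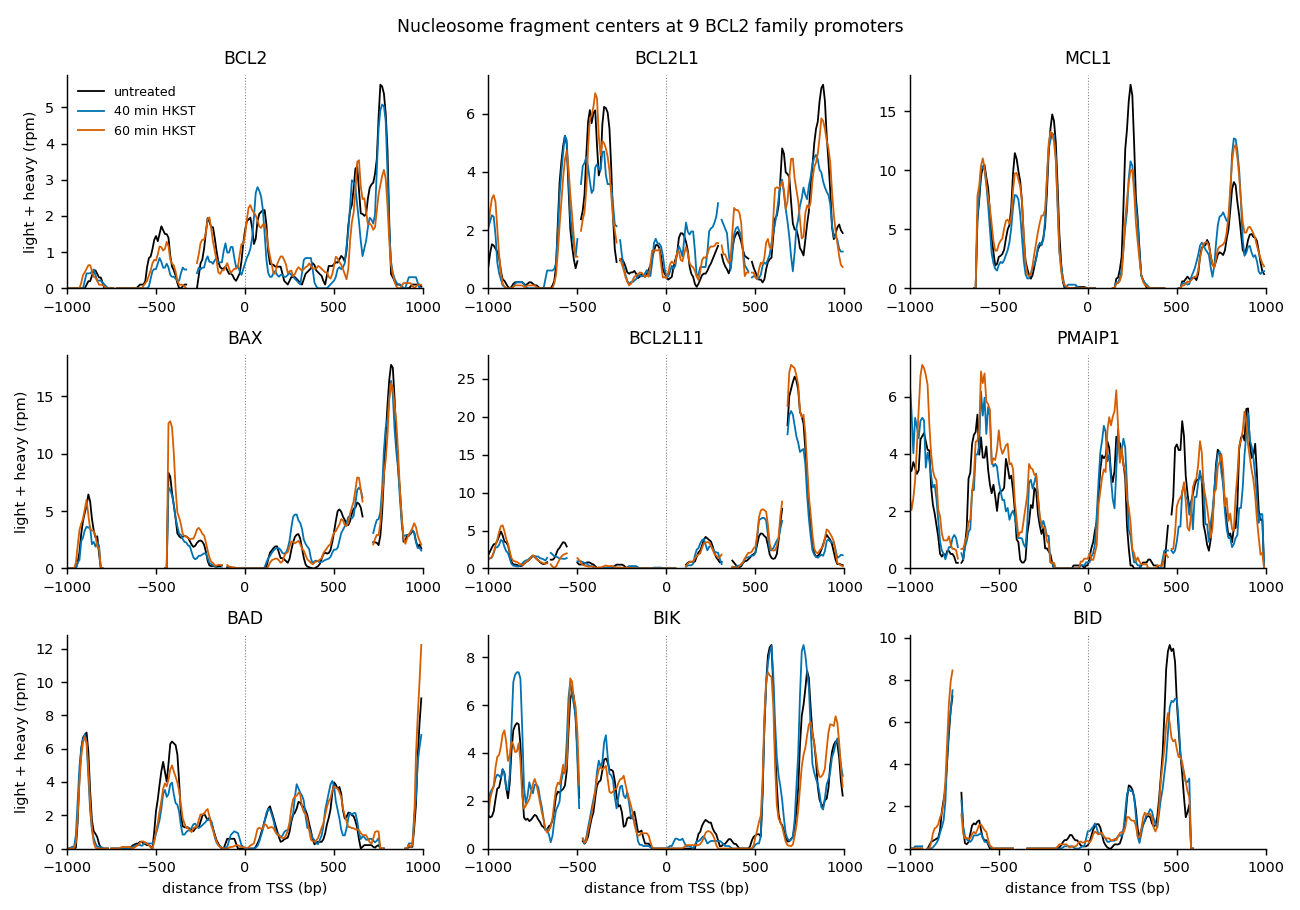
Total signal (light plus heavy, rpm) against the distance from the TSS (bp) at 9 promoters, for untreated cells (black), 40 min (blue) and 60 min (orange) of HKST. Gaps are positions without a value. MCL1 shows sharp peaks at -200 and 240 bp around an empty TSS, and BCL2 has signal across its TSS.

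At the TSSs used here, the 9 promoters ranged from an open one to an occupied one. The occupied one, that of BCL2, lies 389 bp from an annotated start, and the -1 windows of BCL2 and BCL2L1 are exonic. In untreated cells, the total signal from -100 to 50 bp was lower than over the 2 kb at 8 of the 9, and the exception was BCL2, at 0.921 rpm against 0.870 rpm over its 2 kb. It was 0.041 rpm at MCL1 against 3.88 rpm, 0.024 rpm at BAX against 2.66 rpm, 0.021 rpm at BIK against 1.90 rpm and 0 at BCL2L11 against 2.80 rpm. On the log2 scale this depth was -4.62 at MCL1, lower than all but 1.91% of promoters, -4.58 at BCL2L11, -4.25 at BAX and -3.83 at BIK. It was shallower at PMAIP1 (-2.44), BAD (-2.24), BID (-1.40) and BCL2L1 (-0.985), and the median over all promoters was -1.86. A deep gap was thus seen at promoters of each role, at MCL1 among the anti-apoptotic genes, at the effector BAX, and at BCL2L11 and BIK among the BH3-only genes.

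Stretches under 0.25 of a promoter's own mean were sought within 500 bp of the TSS, and positions without a value did not end them. The longest in untreated cells was 540 bp at BCL2L11 (-420 to 120 bp, of which 50 bp had no value), longer than at 89% of promoters. It was 340 bp at BAX (-210 to 130 bp, 20 bp without a value) and 320 bp at MCL1 (-140 to 180 bp, of which 90 bp had no value). It was 310 bp at BIK (-130 to 180 bp), against a median of 230 bp. At BID the stretch of 370 bp (70 bp without a value) lay upstream, from the search edge at -500 bp to -130 bp. It was 50 bp at BCL2L1 and 120 bp at BCL2 (50 bp without a value). At BCL2L11 the stretch was 600 bp at both 40 and 60 min. Promoters with 50 to 60% GC in the 200 bases upstream, the class of BCL2, had medians of 32 light and 15 heavy fragments in the untreated -1 window. The medians fell with each class above it. Below 50% GC they were 30 and 9, so the fall did not hold over all classes. Among promoters with a GC content of 75% or more in the 200 bases upstream, a class that holds BCL2L11, MCL1, PMAIP1 and BID, 70.3% had 3 or fewer fragments in the -1 window, light and heavy together. In the class from 70 to 75%, that of BIK, it was 22.2%, and from 60 to 70%, that of BCL2L1, BAX and BAD, 9.23%. The part of base composition, in the cells or in the library and capture, was not tested. MCL1 had 74 fragments in that window and PMAIP1 had 1.

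Peaks on either side of the TSS kept their place at the sharpest promoter. The highest upstream signal of MCL1 within 500 bp lay at -200 bp in all 4 conditions, and its highest downstream signal at 240 bp, or 250 bp after 20 min. In BAX the upstream peak was at -420 bp in each condition, beside positions without a value, at 7.65 rpm before stimulation, then 6.77 and 12.6 rpm. The BID peak downstream lay at 470, 490 and 450 bp, at 9.49, 7.04 and 6.07 rpm. In BCL2, with less signal, the downstream maximum lay at 100, 70 and 30 bp. Pearson's r between the total profile after HKST and that of untreated cells ranged from 0.836 at PMAIP1 (60 min) to 0.99 at BCL2L11 (60 min). It is taken over positions that share fragments with their neighbors, and of 200 positions 1 (BIK) to 53 (BID) had no value.

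Before stimulation, PMAIP1 and MCL1 were the sensitive promoters of the family, and the other 7 had ratios below 0. The mean over the 2 kb of PMAIP1 was 1.25 rpm light and 0.806 rpm heavy, a log2 ratio of 0.57 (0.35 to 0.93), higher than at 87.6% of promoters. MCL1, with 527 light fragments and 1.68 rpm heavy, had a ratio of 0.37 (0.16 to 0.63). Both are called above 0, as were 34.5% of all promoters. Called below 0 were BID with 0.533 rpm light and 0.777 rpm heavy (-0.46, interval -0.93 to -0.14), BCL2L1 with 0.758 and 1.01 rpm (-0.37, -0.70 to -0.12) and BIK with 0.853 and 1.05 rpm (-0.26, -0.58 to -0.018), as were 28.5% of all promoters. The ratios of BCL2 (-0.28), BAD (-0.19), BAX (-0.17) and BCL2L11 (-0.12) had intervals that include 0. In the order of the ratios, the intervals of neighbors overlap except between MCL1 and BCL2L11. The median of the 9 was -0.19 and that of all promoters 0.06.

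In the -1 window the fragments were few. Untreated cells gave 51 light and 23 heavy fragments at MCL1, 9 and 8 at BCL2, 6 and 10 at BCL2L1, 7 and 4 at BIK, 5 and 6 at BAD, 3 and 3 at BID, 2 and 1 at BAX, 1 and 0 at PMAIP1, and 0 and 0 at BCL2L11. BCL2L1 was called below 0, at -1.12 (-3.41 to -0.06), as were 11.7% of all promoters, and none of the family was called above 0, as were 10.5%. In the +1 window MCL1 was called above 0, with 74 light and 22 heavy fragments and a ratio of 0.79 (0.12 to 1.58), as were 7.78% of all promoters. BAX was called below 0, with 4 light and 10 heavy fragments and a ratio of -1.57 (-4.37 to -0.45), as were 18.5%. These values of MCL1 rest on 11 of the 20 positions of the window, since 9 had no value.

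**Figure D2:**
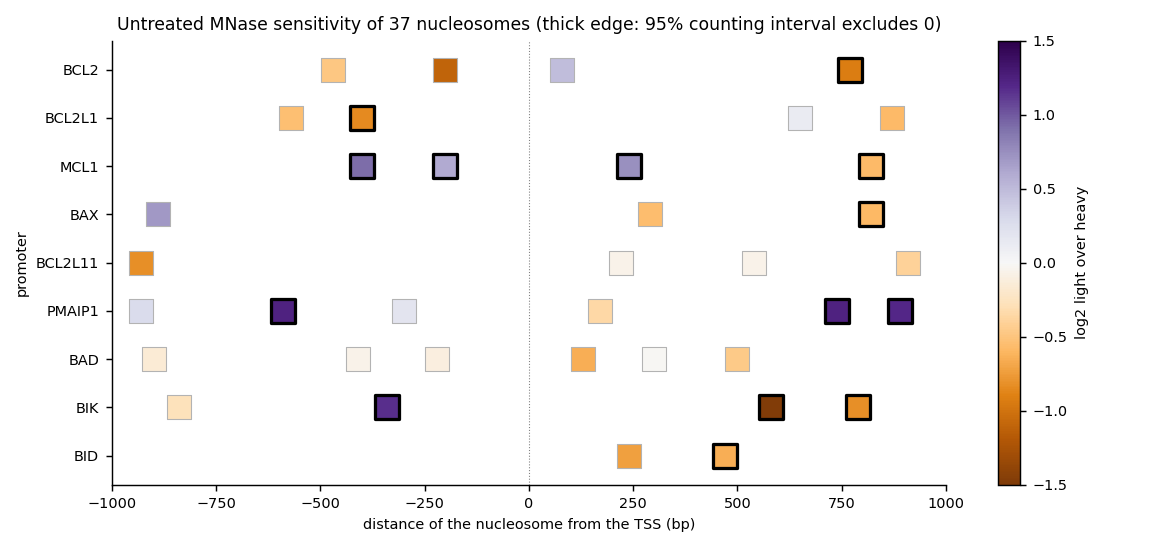
Nucleosomes of the 9 promoters by their distance from the TSS (bp), colored by log2 light over heavy in untreated cells (purple above 0, orange below). A thick edge marks an interval that excludes 0, which holds for 14 of the 37: the sensitive ones lie at MCL1, PMAIP1 and BIK, and PMAIP1 has 3.

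Peaks in the summed total of the 3 conditions gave 37 nucleosomes at the 9 promoters and 64592 at all 16260. Of the 37, 7 were called above 0 in untreated cells and 7 below 0, against 17.8% and 18.5% of all. The sensitive ones were those of MCL1 at -400 bp (99 light, 27 heavy fragments, ratio 0.92), -200 bp (4.33 and 2.82 rpm, 0.60) and 240 bp (4.96 and 2.91 rpm, 0.75), those of PMAIP1 at -590 bp (67 and 14, 1.23), 740 bp (38 and 8, 1.24) and 890 bp (64 and 14, 1.2), and that of BIK at -340 bp (49 and 11, 1.17). The resistant ones lay at -400 bp in BCL2L1 or from 470 to 820 bp downstream in BCL2, MCL1, BAX, BIK and BID. At MCL1 the 3 nucleosomes that flank the empty TSS were sensitive and that at 820 bp was resistant, with 50 light and 41 heavy fragments and a ratio of -0.58 (-1.26 to -0.007). At BIK the resistant nucleosomes were those at 580 bp (23 light, 37 heavy, -1.48) and 790 bp (37 and 36, -0.83). All 6 nucleosomes of BAD and all 4 of BCL2L11 had intervals that include 0. The highest peak of BCL2L11, downstream of the TSS, borders positions without a value and is not among the 37.

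After HKST, no promoter of the family had a change of the -1 ratio beyond its counting error, and which promoters were higher depended on the window. The -1 ratio is that of a fixed window and not of a positioned nucleosome. Of the 37 nucleosomes, only those of BCL2 and MCL1 at -200 bp were centered within it, at its edge. The median -1 ratio over the 9 went from -0.11 before stimulation to 0.14 after 40 min and 0.23 after 60 min. The median of all promoters was 0.03, 0.06 and 0.03, but over unlike sets, 16233 promoters before stimulation and 21799 at both later times. Centred on the median of the 16260 promoters held in all 3 conditions, the family medians were -0.14, 0.04 and 0.13. With the window set from -310 to -110 bp the family medians at 40 and 60 min, not centred, were -0.055 and 0.011. The ratio was higher than in untreated cells at 8 of the 9 at both times, with a median change of 0.33 at 40 min and 0.38 at 60 min against 0.05 and 0.03 over all promoters, of which 52.9% and 51.4% were higher. These 8 include PMAIP1 at 40 min, with 1 light and 0 heavy fragments before and after, and BCL2L11 at 60 min, with none. Among promoters with 10 or more fragments in the tables compared, 5 of 5 were higher at 40 min and 7 of 7 at 60 min. The share of all promoters that were higher under this filter was not calculated. The 52.9% and 51.4% are without the filter, and there 6.14% and 5.88% of promoters had equal ratios. Both counts rest on the same pair of untreated tables, so they are not separate evidence of a rise across the family. With the window from -310 to -110 bp 6 of the 9 were higher at 40 min and 7 at 60 min, and with that from -250 to -100 bp 7 and 5. With a pseudocount of 0.5 of the mean the median changes were 0.17 and 0.16. No change was called in either direction among the 7 promoters of the family with an interval at 40 min and the 8 at 60 min, the others having too few fragments for one. Of all promoters, 1.69% were called higher and 1.46% lower at 40 min, and 2.36% and 2.21% at 60 min.

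The changes of 1 or more came from BCL2, BCL2L1 and BAD at 60 min. BCL2 went from 9 light and 8 heavy fragments to 11 and 5 and then 19 and 6, a change of 1.47 (-0.28 to 4.11) at 60 min. BCL2L1 went from 6 and 10 to 9 and 5 and then 12 and 7, a change of 1.29 (-0.34 to 4.23). BAD went from 5 and 6 to 9 and 4 and then 7 and 3, a change of 1.21 (-1.12 to 5.07). The change of BAD was -0.052 with the window from -250 to -100 bp, and with a pseudocount of 0.5 of the mean all 3 were below 1, at 0.74, 0.63 and 0.49. In each of the 3 the light rpm was higher and the heavy rpm lower at both times than before stimulation, and the heavy signal of BCL2, for one, was 0.484, then 0.435 and 0.245 rpm. A rise of this size was seen at 9.6% of all promoters at 60 min and 11.5% at 40 min, and a fall at 4.29% and 5.61%, and of the 9 none reached it at 40 min and none fell by as much. MCL1, the promoter with the most fragments, had 45 light and 27 heavy fragments at 60 min and a change of 0.008 (-1.08 to 1.06). The remaining 5 had 14 or fewer fragments in each condition, and for BCL2L11 (0 and 0, then 1 and 1, then 0 and 0) a change of sensitivity was not detectable at this depth.

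**Figure D3:**
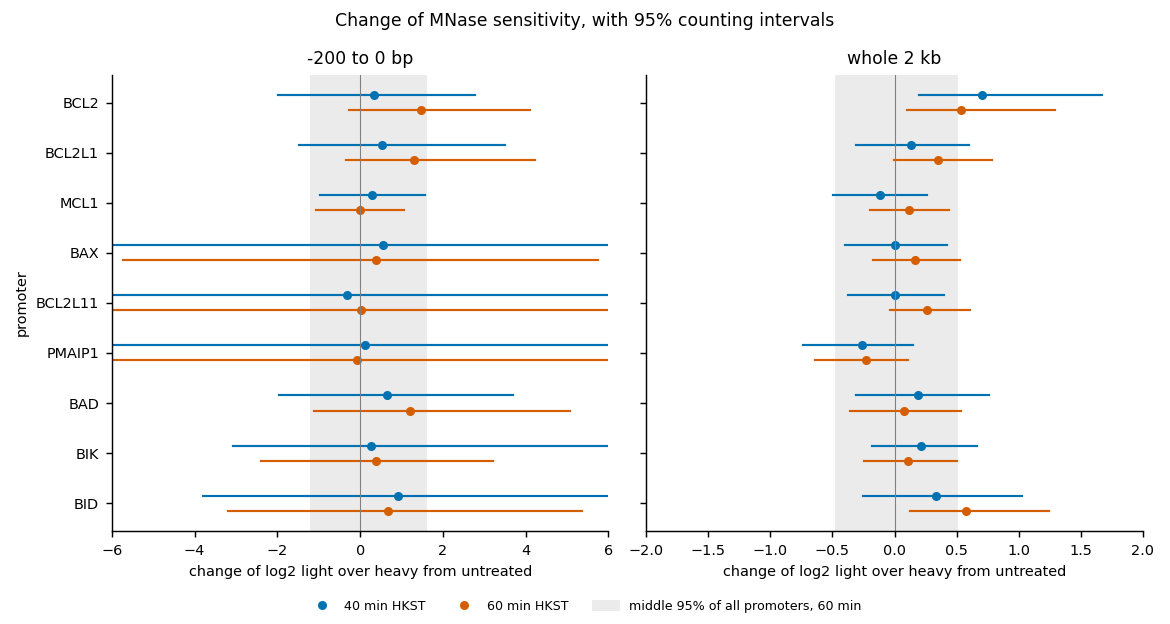
Change of log2 light over heavy from untreated cells at 40 min (blue) and 60 min (orange) of HKST for each promoter, in the -1 window (left) and over the 2 kb (right). Lines are 95% counting intervals, cut at the panel edge where they run on or have no bound, and the grey band holds the middle 95% of all promoters at 60 min. In the -1 window every interval includes 0, and over the 2 kb those of BCL2 at both times and of BID at 60 min do not.

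Over the whole 2 kb, where fragments were more numerous, BCL2 and BID were called more sensitive. The mean light signal of BCL2 was 0.380 rpm before stimulation, then 0.428 and 0.436 rpm, and the heavy signal was 0.490, 0.289 and 0.346 rpm on 81, 31 and 79 fragments. Its log2 ratio went from -0.28 to 0.42 and 0.25, a change of 0.71 (0.19 to 1.67) at 40 min, larger than at 99.6% of promoters, and of 0.54 (0.10 to 1.29) at 60 min, larger than at 98.1%. BID had a light signal of 0.533, 0.548 and 0.605 rpm and a heavy signal of 0.777, 0.607 and 0.548 rpm on 97, 49 and 94 fragments, with changes of 0.34 (-0.25 to 1.03) and 0.58 (0.13 to 1.24). In untreated cells 4.88% of promoters had less total signal over the 2 kb than BCL2, and 13.6% had less than BID. These changes were ranked against promoters of any signal, not against those of like signal. With a pseudocount of 0.5 of the mean the changes of BCL2 were 0.36 and 0.28 and those of BID 0.21 and 0.35. Called higher were 5.92% of all promoters at 40 min and 8.07% at 60 min, and called lower 5.26% and 9.32%, with none of the 9 among the latter. BCL2L1 reached 0.35 (-0.001 to 0.79) at 60 min. The median change of the 9 was 0.13 at 40 min and 0.16 at 60 min, against 0.02 and 0.004 over all promoters, with 7 and 8 of the 9 higher. From 40 to 60 min none of the 9 was called, against 4.24% of all promoters higher and 7.58% lower.

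At BCL2 and BID it was the heavy signal that fell beyond counting error. Relative to depth, the heavy signal of BCL2 over the 2 kb fell by 0.57 on the log2 scale at 40 min (-1.39 to -0.13) and by 0.39 at 60 min (-0.96 to -0.03), and that of BID fell by 0.42 at 60 min (-0.93 to -0.08). Their light signals were higher by 0.13 to 0.15 at these times, with intervals that include 0. The heavy signal fell at 4.02% of all promoters at 40 min and 8.55% at 60 min. At BCL2L1, BCL2L11 and BAX it was the light signal that rose at 60 min, by 0.22, 0.25 and 0.22, as at 13.7% of all promoters, and at PMAIP1 the heavy signal rose by 0.29 (0.02 to 0.65), as at 7.32%.

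With the 2 kb divided at the TSS, the calls lay downstream. In the downstream 1 kb BIK, with 98 heavy fragments before stimulation and 47 after 40 min, was called higher at both times, with changes of 0.96 (0.45 to 1.74) and 0.53 (0.05 to 1.18). The upstream changes of BIK were -0.43 and -0.27, and none of the 9 was called upstream at either time. Downstream, BCL2 was also called higher at 40 min (0.74, 0.06 to 1.81) and BID at 60 min (0.66, 0.05 to 1.39). PMAIP1 was called lower at 60 min, with a change of -0.53 (-1.12 to -0.08). In the downstream 1 kb 5.33% of all promoters were called higher and 3.84% lower at 40 min, and 5.89% and 7% at 60 min. In the upstream 1 kb 4.37% were called higher and 4.1% lower at 40 min, and 5.54% and 6.86% at 60 min. Whether the upstream and downstream changes differ was not tested.

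Within BIK the call was made at a nucleosome that was resistant before stimulation. At each nucleosome the ratio before stimulation and the change rest on the same untreated fragments, so they are not independent. The nucleosome at 580 bp went from 23 light and 37 heavy fragments to 50 and 17 after 40 min and 31 and 43 after 60 min. Its log2 ratio was -1.48, then 0, then -0.93, a change of 1.48 (0.46 to 2.84) at 40 min that was smaller at 60 min (0.55, -0.46 to 1.71). The nucleosome at 790 bp had 37 and 36, then 56 and 20, then 42 and 31, with a change of 0.78 (-0.22 to 1.92) at 40 min. Light signal rose at both at 40 min, by 1.05 and 0.59, and these were 2 of the 37 nucleosomes of the family, against 5.04% of all. The nucleosome at -340 bp, sensitive before stimulation, had changes of -0.43 and -0.64 with intervals that include 0. In BID the nucleosome at 240 bp went from 13 light and 12 heavy fragments to 18 and 5 at 60 min, a change of 1.79 (0.11 to 4.30). Of the 37 nucleosomes, those of BIK at 580 bp (40 min) and BID at 240 bp (60 min) were called higher and none lower, against 3.01% of all nucleosomes higher and 2.68% lower at 40 min and 3.23% and 4.28% at 60 min. With 1 of 37 at each time, the share in the family was near that of all nucleosomes. Heavy signal fell at 3 of the 37 at 60 min, BCL2 at 770 bp and BID at 240 and 470 bp, against 4.65% of all, and rose at 3 at 40 min, BCL2L11 at 540 bp, BAX at 290 bp and BIK at -840 bp, against 2.72%.

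**Figure D4:**
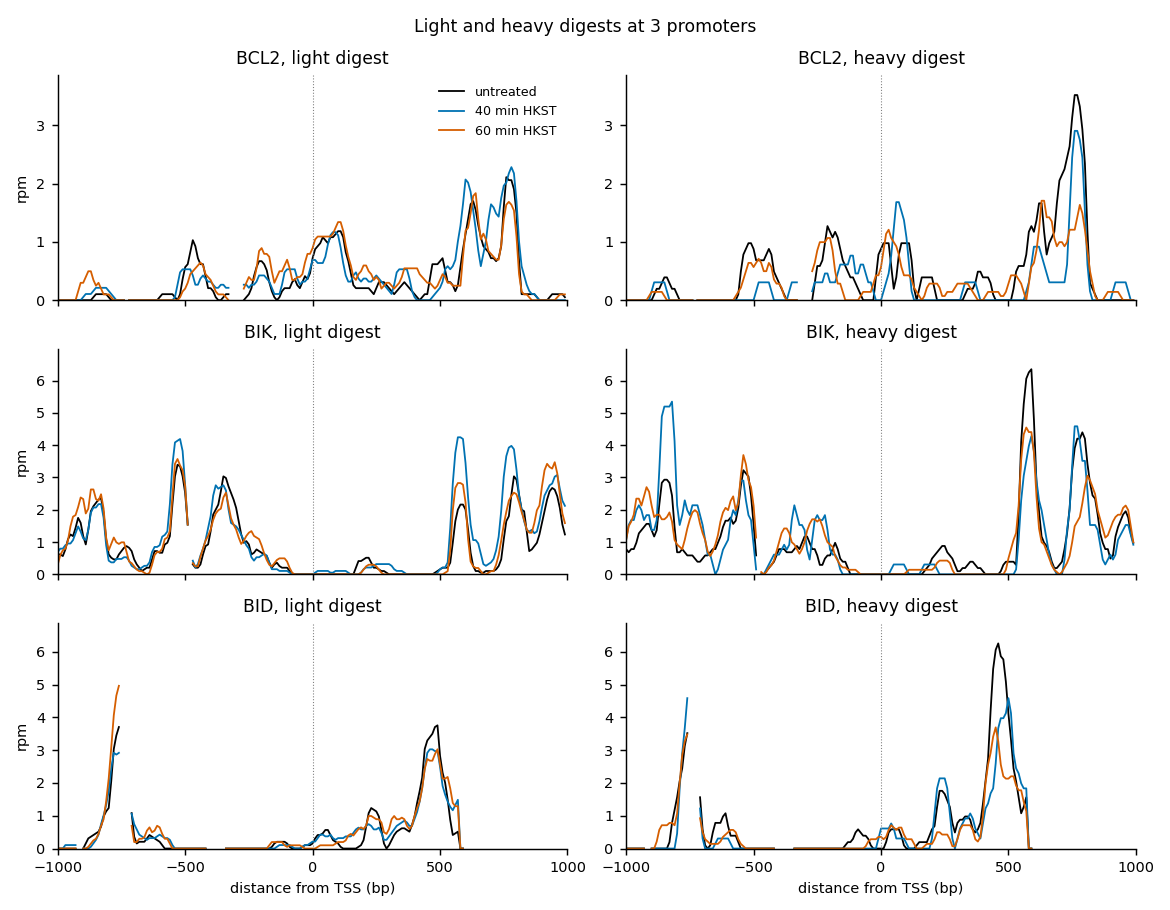
Light (left) and heavy (right) signal in rpm against the distance from the TSS (bp) at BCL2, BIK and BID in untreated cells (black), 40 min (blue) and 60 min (orange) of HKST, with both digests of a promoter on 1 scale. The light peak of BIK at 580 bp is highest at 40 min, and the heavy peaks of BCL2 at 770 bp and BID at 470 bp are highest in untreated cells.

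MCL1 could be followed through all 4 conditions, and the light signal of its nucleosome downstream of the TSS was lower at all 3 times of HKST. The nucleosome at 240 bp had a light signal of 4.96 rpm before stimulation, 3.10 rpm (81 fragments) after 20 min, 2.49 rpm (59 fragments) after 40 min and 2.91 rpm (73 fragments) after 60 min. It had 37, 23, 20 and 31 heavy fragments. Relative to depth the light signal fell by 0.66 (-1.11 to -0.27) at 20 min, by 0.96 (-1.47 to -0.53) at 40 min and by 0.75 (-1.22 to -0.35) at 60 min on the log2 scale. Light signal fell at 4.19% of all nucleosomes at 40 min and 5.85% at 60 min, and rose at 5.29% at 60 min, where none of the 37 did. The nucleosome of MCL1 at -400 bp was the other of the family whose light signal fell, by 0.50 at 40 min (-0.99 to -0.06). The +1 window shares positions with the nucleosome at 240 bp and is not a separate observation. In it the light signal of MCL1 fell at each time, with 74, 42, 33 and 41 fragments, and none of the other 8 did so at 40 or 60 min. It fell at 3.36%, 2.16% and 4.81% of all promoters at the 3 times. The heavy signal at 240 bp had changes of -0.36, -0.22 and -0.70, with intervals that include 0.

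The upstream neighbor of this nucleosome serves as a reference within the same pooled table, which mixes 2 replicates and so is not a single tube. The nucleosome at -200 bp had a light signal of 4.33, 5.16, 4.84 and 4.36 rpm in the 4 conditions, with changes of 0.25, 0.15 and 0.009 relative to depth and intervals that include 0. Light fragments at 240 bp per fragment at -200 bp fell by 0.94 (-1.52 to -0.37) at 20 min, by 1.15 (-1.78 to -0.54) at 40 min and by 0.80 (-1.39 to -0.20) at 60 min on the log2 scale, and depth cancels in this value. The same value in the heavy digest was -0.22, 0.28 and -0.76, with intervals that include 0. Both nucleosomes were chosen for this after their values were seen, and the 3 times share the untreated table. The log2 ratio of light over heavy at 240 bp was 0.75, 0.45, 0.008 and 0.70 in the 4 conditions, and no change of it was called. In the -1 window MCL1 had 60 light and 13 heavy fragments at 20 min, a ratio of 0.78 against 0.22 in untreated cells. That change of 0.56 (-0.57 to 1.89) was larger than at 74.2% of promoters and was not called, nor was the 2 kb change of 0.24 (-0.11 to 0.61). Over the 2 kb the light signal of MCL1 fell by 0.18 at 40 min (-0.38 to -0.006), as at 8.35% of all promoters, and that of BIK rose by 0.28 (0.08 to 0.55), as at 9.29%.

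**Figure D5:**
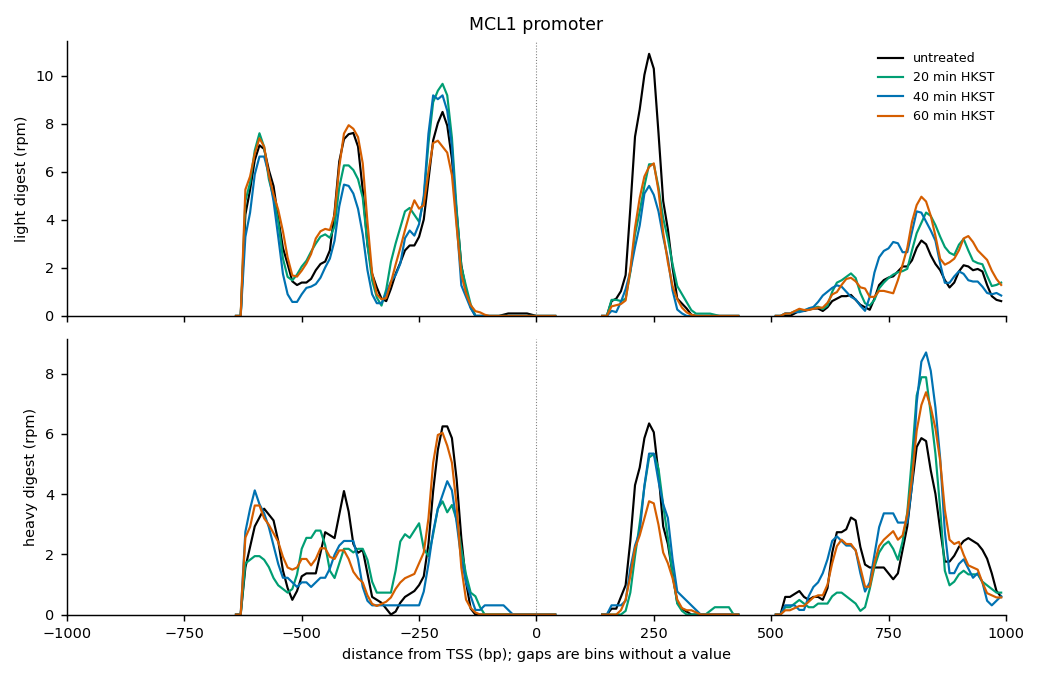
Light (top) and heavy (bottom) signal in rpm at MCL1 against the distance from the TSS (bp), in untreated cells (black) and at 20 (green), 40 (blue) and 60 min (orange) of HKST. The light peak at 240 bp is higher in untreated cells than in the 3 HKST conditions, while those at -200 bp overlap.

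In the +1 window no change of the ratio was called among the 9, against 2.54% of all promoters higher and 1.46% lower at 40 min and 2.46% and 3.03% at 60 min. BAX had 4 light and 10 heavy fragments there, then 11 and 6, then 1 and 10, so its ratio was -1.57, -0.45 and -1.83. PMAIP1 had 52 and 27, then 48 and 21, then 47 and 53, and its ratio at 60 min was -0.64 (-1.29 to -0.10). BCL2L11, which is needed for the removal of autoreactive lymphocytes, had ratios of -0.14, -0.79 and 0.08. BAD, whose protein is held inactive by phosphorylation, had ratios of -0.48, 0.16 and -0.06, and over its 2 kb the changes were 0.19 and 0.08 with intervals that include 0.

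Of 16 other BCL2 family genes listed, 14 had a promoter and 13 could be compared. In the -1 window none was called at either time, against the shares of 1.46 to 2.36% given above for each direction, and the median changes were 0.20 at 40 min (8 higher, 4 lower) and 0.13 at 60 min (9 higher, 3 lower). BAK1, the other pore-forming effector, had 83 light and 27 heavy fragments in that window and 95 and 25 at 60 min, a change of 0.66 (-0.25 to 1.68). BNIP3L (NIX), which marks mitochondria for removal, had a change of 0.63 (-0.16 to 1.53). At the other end of the 6 promoters with 10 or more fragments in each table lay BCL2L10 at -0.11 (-1.42 to 1.00) and BCL2L13 at 0.001 (-0.81 to 0.77). Over the 2 kb, 2 of the 13 were called higher and 1 lower at 40 min, against 5.92% and 5.26% of all promoters. BNIP3L went from a log2 ratio of -0.12 to 0.42, a change of 0.54 (0.13 to 1.11). BNIP3, a relative of BNIP3L, went from -0.44 to 0.18 (0.63, 0.09 to 1.58), and BCL2L15 went from 0.54 to 0.08 (-0.46, -0.95 to -0.06). At 60 min BNIP3L (to 0.44, a change of 0.56, 0.23 to 1.07) and BCL2L13 (from 0.43 to 0.79, a change of 0.36, 0.03 to 0.75) were called higher, against 8.07% of all promoters. The median 2 kb changes were -0.02 and 0.10.

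Of 21 genes that act downstream of the family in the mitochondrial pathway, 20 had a promoter and 14 could be compared. CYCS, which encodes cytochrome c, the protein released when BAX opens the outer membrane, was called higher in the -1 window at both times, as were 1.69% and 2.36% of all promoters. It went from 1 light and 5 heavy fragments to 14 and 0 and then 7 and 1, with changes of 3.20 (1.51, no upper bound) and 2.46 (0.67 to 11.3). Its 2 kb ratio went from -0.11 to 0.36 at 60 min, a change of 0.47 (0.16 to 0.89), in a direction called at 8.07% of all promoters. CASP6, an executioner caspase, was called lower in the -1 window at 60 min, from 9 light and 4 heavy fragments to 3 and 13 (-1.96, -5.89 to -0.05), as were 2.21% of all promoters. BIRC3, an inhibitor of apoptosis and a target of NF-kB, was called higher over the 2 kb at 40 min, from 0.48 to 0.97 (0.49, 0.03 to 1.24), as were 5.92% of all promoters. Only VDAC1 and HTRA2 had 10 or more fragments in each table of the -1 window, with changes of 0.62 (-0.95 to 2.62) and -0.45 (-1.80 to 0.75) at 60 min. The median -1 changes of the 14 were -0.009 and 0.09, and their median 2 kb changes -0.06 and 0.19.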

How the data were processed

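Nucleosome fragments of 140 to 200 bp were measured at promoters in 16 samples. Per the labels and the methods, the authors aligned paired reads to hg19, kept unique pairs and deposited 8 tables, each pooling 2 replicates, of fragment centers within 60 bp, every 10 bp, in rpm. The submitters' processing notes list Bowtie2 2.2.2. The deposited rpm values rise in even steps (100% of low values within 0.05 of a step). A step was taken as 0.5 fragment and a fragment as entering 6 windows, and the sums of a window were rounded to whole fragments. The depths, fragment numbers and intervals rest on these settings. With pooled tables no count test was possible. Positions without a value were left out. The untreated heavy, 20 min light and 20 min heavy tables held 16260, 2801 and 6779 complete promoters as received. Intervals of light over heavy were exact binomial (Clopper-Pearson), those of changes exact conditional, with the depths as offsets. No p-value was calculated.

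Members and gene lists were chosen with earlier results of these data known. Named genes were every member, the 2 largest rises and falls at 60 min in each list among promoters with 10 or more fragments per table, and list promoters whose interval excluded 0, the last chosen after their values were seen. Nucleosomes were maxima of the summed total above the promoter's mean, at least 150 bp apart, read over 70 bp either side where every position had a value. Sequences and exons were taken from GRCh37 and GENCODE v44, and the BIK promoter sequence and its motifs are not reported here. Methods were tested on simulated fragments. Python 3.11.15, numpy 2.4.6 and scipy 1.17.1 were used.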

Additional observations from a re-analysis of the deposited data

How the results depend on the processing

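Of the values over the family, 87 of 95 under an alternative stayed within the interval of the reported median or within 1.5 times the reported count, and 8 did not. This interval is not a counting interval. It comes from the ranked values of the 9 promoters, which are not replicates, and it is wide. The untreated -1 median of -0.113 became -0.765 with recovered fragments and still lay within it. Staying within it is therefore a weak check. The count of promoters with a -1 change of 1 or more at 60 min, 3 as reported, was 0 with a pseudocount of 0.5 of the mean and 1 with the window from -310 to -110 bp, and that 1 was BCL2L11 (1.06), not BCL2 (0.99), BCL2L1 (0.44) or BAD (0.044). The count of higher -1 ratios, 8 as reported at both times, was 5 at 60 min with the window from -250 to -100 bp, and 5 at 40 min where 10 or more fragments were asked for, which leaves 5 promoters. At 40 min the count of 0 became 2 with a pseudocount of 0.01 of the mean and 1 with recovered fragments, and the median change became 0.72 with the former. The median -1 ratio at 60 min became 0.011 with the window from -310 to -110 bp. The median at 40 min turned below 0 with that window (-0.055), with -250 to -100 bp (-0.035) and with 10 or more fragments (-0.18), and the median +1 ratio at 60 min became -0.35 with the window from 0 to 200 bp. Centring on all promoters lowered the median -1 changes to 0.28 and 0.35. The windows over 2 kb, 1 kb and single nucleosomes, and the digests taken alone, were alternatives chosen after seeing the data. Calls rest on fragments alone, so that a pseudocount cannot change them. The calls of BCL2 over the 2 kb held with centring and were lost in the upstream 1 kb at both times (0.62 and 0.65) and in the downstream 1 kb at 60 min (0.50), where fewer fragments enter. Of 56 peak positions, 1 moved by more than 60 bp without smoothing. Taking 1 row per gene changes nothing, since each gene has 1. No paired analysis was possible because each table pools both replicates, and no replicate could be left out for the same reason. Depth limits the -1 window, where 6 of the 9 promoters had 14 or fewer fragments in each condition.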
